A study of Mus musculus with 10 samples.

Results

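Immediate-early genes and ERK feedback inhibitors were followed as 10 genes in mammary tumours of the Wap-Myc mouse: the AP-1 and EGR transcription factors Fos, Fosb, Fosl1, Jun, Junb and Egr1, and the inhibitors Dusp1, Dusp6, Spry2 and Spry4. They were found by matching the gene IDs of the deposited count table to these symbols, and all 10 were present among 55335 genes. All 10 also passed the filter on low counts, which left 16167 genes for testing. The comparison was between 5 tumours labelled DOX and 5 labelled no_DOX.

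In the DOX group the host mice drank doxycycline (2 mg/ml in 5% sucrose) from 3 days after transplantation, and in the no_DOX group they received sugar water. Every tumour, no_DOX ones included, grew from Wap-Myc mammary epithelial cells of FVB background that carried the lentivirus pIND21-HPN, an inducible construct for hepsin, a membrane-bound serine protease. Cells were infected at a multiplicity of 10 and placed in the fat pads of 3-week-old mice, and Myc was induced at 8 weeks of age by 2 consecutive pregnancies. Tumours were taken at 1 cm. The comparison therefore asks how transcripts differ when the hepsin construct is switched on in Myc-driven mammary cancer. The Wap promoter drives Myc in the secretory epithelium of pregnancy and lactation, while the host supplies stroma, vessels and immune cells, and RNA came from whole tumour tissue. No group had doxycycline without the construct, so induction of hepsin and doxycycline itself cannot be told apart. Whether the 5 tumours of a group grew in 5 different hosts is not stated, and the p-values below speak only of variation among the tumours at hand.

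Growth factor receptors signal through RAS, RAF, MEK and the kinase ERK, which activates transcription factors already present in the cell. Immediate-early genes such as Fos, Jun and Egr1 are then transcribed within minutes without new protein synthesis, and their products pair as AP-1 or bind GC-rich sites to drive later genes. ERK also induces its own brakes: DUSP phosphatases remove phosphate from MAP kinases, and Sprouty proteins block signalling between receptor and RAF. In the mammary gland this pathway acts downstream of EGF-family receptors in ductal growth, and its output is read from the transcripts of these same genes in tumours.

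Promoter sequence was inspected because several of the genes varied together over tumours. The windows are the 250 bases before the RefSeq start of the gene (GRCm38.p6), written 5′ to 3′ on the gene's strand. Of the 10 genes, 7 matched a window, and Fosl1, Egr1 and Spry4 did not. None of the 3 pairs correlated below therefore had a window for both genes, so the windows cannot be compared within those pairs. Fos (chr12:85473640-85473889, plus strand) and Dusp1 (chr17:26508473-26508722, minus strand) are printed as an immediate-early factor and an inhibitor that hold the cAMP response element core, and Dusp6 (chr10:99262981-99263230, plus strand) and Spry2 (chr14:105896820-105897069, minus strand) as inhibitors in which it was not found. Capitals mark TGACG or, on the other strand, its complement.
Fos: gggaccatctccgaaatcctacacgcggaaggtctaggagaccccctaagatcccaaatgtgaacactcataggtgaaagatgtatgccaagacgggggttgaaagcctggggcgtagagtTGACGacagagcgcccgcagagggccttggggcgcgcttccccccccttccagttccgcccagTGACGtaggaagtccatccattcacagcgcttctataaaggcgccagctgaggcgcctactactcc
Dusp1: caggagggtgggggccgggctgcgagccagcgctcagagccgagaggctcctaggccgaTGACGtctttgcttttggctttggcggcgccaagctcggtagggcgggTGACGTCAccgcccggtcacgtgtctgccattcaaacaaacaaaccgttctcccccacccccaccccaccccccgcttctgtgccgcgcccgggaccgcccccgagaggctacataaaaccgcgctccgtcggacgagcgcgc
Dusp6: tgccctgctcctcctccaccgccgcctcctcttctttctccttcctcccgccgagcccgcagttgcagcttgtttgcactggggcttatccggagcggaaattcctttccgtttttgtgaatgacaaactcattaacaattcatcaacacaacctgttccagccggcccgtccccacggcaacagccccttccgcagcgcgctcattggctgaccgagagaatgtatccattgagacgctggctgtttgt
Spry2: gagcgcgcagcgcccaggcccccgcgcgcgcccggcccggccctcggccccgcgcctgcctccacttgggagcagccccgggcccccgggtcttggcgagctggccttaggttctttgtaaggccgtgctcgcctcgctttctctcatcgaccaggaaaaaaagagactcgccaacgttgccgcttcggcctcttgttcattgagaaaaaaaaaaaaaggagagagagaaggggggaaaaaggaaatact
The core TGACG, searched on both strands, stood in 4 of the 7 windows, against 17.8% of all 32851 RefSeq windows of this length. It began 129 and 66 bases before the start of Fos, 60 bases before Fosb, 106 bases before Junb, and 191 and 143 bases before Dusp1. In Dusp1 the site at 143 was the full palindrome TGACGTCA, which overlaps TGACG and was in 1.55% of all windows. The Jun window held none. The AP-1 site TGANTCA (6.75% of all windows) and the CArG box bound by serum response factor (1.47%) were found in 0 of the 7. The same held for CCGGAA (3952 of the windows), which is only 1 longer form of an ETS site. The shorter ETS core GGAA was not searched, and it stands in the printed windows of Fos, Dusp6 and Spry2. These matches describe letters in a short window only, and the serum response element known for Fos lies further upstream than the window.

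The libraries held 14256948 to 39358457 counts, and the next deepest after DOX 3 had 20469533. On the first principal component of all tested genes (31% of variance), DOX 5 (-42.9) lay at one end and DOX 2 (21.2), no_DOX 2 (33.0) and no_DOX 4 (48.0) at the other. Levels are given as CPM, counts scaled to a common library size after TMM correction for library composition, and differences as log2 fold change of DOX over no_DOX ± standard error from edgeR. P-values were adjusted over all 16167 genes. Hpn, the mouse hepsin gene, had 26.5, 46.1, 25.1, 32.9 and 28.2 CPM in DOX tumours 1 to 5, against 25.8, 25.1, 23.1, 14.2 and 20.4 CPM in no_DOX tumours 1 to 5. The groups overlapped, with 4 of 5 DOX tumours above the highest no_DOX tumour. The mean difference was 0.52 on the log2(CPM + 1) scale (exact two-sided permutation test, p = 0.0159, smallest possible 0.00794), and edgeR gave 0.55 ± 0.20 (adjusted p = 0.247). The species of the hepsin sequence in the construct is not given in the sources used here.

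None of the 10 genes passed the test between DOX and no_DOX tumours. Spry4, an inhibitor of receptor tyrosine kinase signalling, averaged 26.3 ± 9.02 CPM in DOX and 14.7 ± 5.62 CPM in no_DOX tumours (SD, n = 5 each), a 1.79-fold difference with an adjusted p of 0.252. All 4 inhibitors had a positive fold change (median 0.33), and so did 5 of the 6 transcription factors (median 0.20), with Jun the exception. Adjusted p under 0.05 was reached by 0 of the 10, against 0% of all genes tested (0 of 16167). Unadjusted p under 0.05 was reached by 1 of the 10, Spry4, against 16% of all genes tested, 8.2% higher and 7.83% lower. With DESeq2 0 of the 10 were called, against 2.12% of all genes, and with limma voom 0 of the 10, against 4.79%. The fold change was above 0 for 9 of the 10 and for 50.5% of all genes, and below 0 for 1 of the 10 and 49.5% of all genes. The median over all genes was 0.00. In no member were the groups free of overlap, against 2.94% of all genes, 1.82% with DOX higher and 1.13% with DOX lower. A p that misses the threshold does not show that the groups were alike, and in bulk RNA fewer cells of a type and less RNA per cell cannot be told apart.

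**Figure D1:**
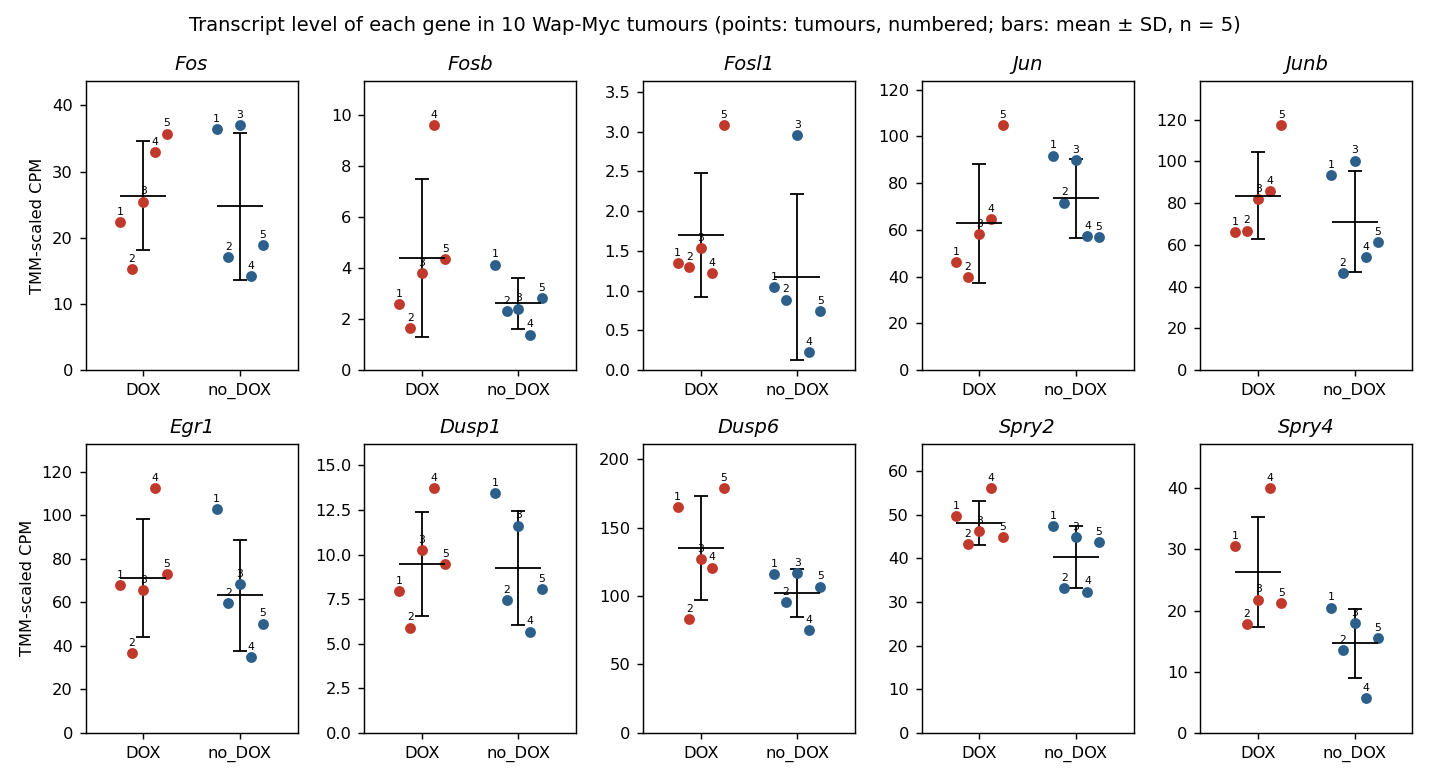
TMM-scaled CPM (linear axes from 0) of the 10 genes in each tumour, DOX in red on the left and no_DOX in blue on the right, with points numbered by tumour and bars for mean ± SD (n = 5). The groups overlap in every panel, and Spry4 and Dusp6 have 4 of 5 DOX points above the highest no_DOX point.

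Fos, the AP-1 subunit that pairs with JUN proteins (ENSMUSG00000021250.13, chr12:85473890-85477273), had 22.4, 15.3, 25.5, 33.0 and 35.8 CPM in DOX tumours 1 to 5, against 36.4, 17.1, 37.0, 14.2 and 18.9 CPM in no_DOX tumours 1 to 5. Both groups ran from low to high, and no DOX tumour lay outside the no_DOX range. Fos had a log2 fold change of 0.09 ± 0.31 (adjusted p = 0.905), which was negative when DOX 4, DOX 5, no_DOX 2 or no_DOX 4 was left out (range over single tumours left out -0.06 to 0.27). Fosb (ENSMUSG00000003545.3, chr7:19302696-19310051), a related subunit, had 2.59, 1.65, 3.80, 9.59 and 4.35 CPM in DOX tumours, against 4.13, 2.32, 2.41, 1.39 and 2.83 CPM in no_DOX tumours. DOX 4 stood well above every other tumour of either group. Its fold change of 0.73 ± 0.44 (adjusted p = 0.418) was 0.24 without DOX 4. Fosl1 (ENSMUSG00000024912.6, chr19:5447547-5455946), which encodes the FOS-like subunit FRA1, had 1.35, 1.30, 1.54, 1.22 and 3.08 CPM in DOX tumours, against 1.05, 0.887, 2.95, 0.232 and 0.746 CPM in no_DOX tumours. One tumour of each group, DOX 5 and no_DOX 3, stood above the rest of its group. For Fosl1 it was 0.54 ± 0.52 (adjusted p = 0.616), 0.23 without DOX 5 and 1.20 without no_DOX 3. Fosl1 rested on 4 to 62 counts per library, and Ccdc85b, on the opposite strand over part of it, had 3479 counts in all against 284 for Fosl1.

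Jun (ENSMUSG00000052684.4, chr4:95049034-95052222), the founding JUN subunit of AP-1, had 46.3, 39.8, 58.3, 64.6 and 104.8 CPM in DOX tumours 1 to 5, against 91.7, 71.7, 89.9, 57.5 and 56.9 CPM in no_DOX tumours 1 to 5. DOX 1 and DOX 2 lay below every no_DOX tumour while DOX 5 lay above all of them. Its fold change was -0.23 ± 0.25 (adjusted p = 0.665), -0.49 without DOX 5 and -0.11 without DOX 2. Junb (ENSMUSG00000052837.6, chr8:84974484-84978718), a JUN family member that can restrain Jun, had 65.9, 66.8, 81.8, 85.9 and 117.3 CPM in DOX tumours, against 93.3, 46.4, 100.3, 54.2 and 61.5 CPM in no_DOX tumours. The groups overlapped, with DOX 5 the highest and no_DOX 2 the lowest. Junb differed by 0.23 ± 0.23 (adjusted p = 0.632) and by 0.08 without DOX 5. Prdx2, on the opposite strand over part of Junb, had 27860 counts against 15288 for Junb. Egr1 (ENSMUSG00000038418.7, chromosome 18), a zinc finger factor induced through the ternary complex factors that ERK phosphorylates, had 67.8, 36.7, 65.8, 112.6 and 73.0 CPM in DOX tumours, against 102.8, 59.8, 68.3, 34.9 and 50.3 CPM in no_DOX tumours. DOX 4 and no_DOX 1 were high, and DOX 2 and no_DOX 4 were low. Its fold change was 0.17 ± 0.31 (adjusted p = 0.806), -0.06 without DOX 4 and 0.41 without no_DOX 1.

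Dusp1 (ENSMUSG00000024190.7, chr17:26505590-26562128), a nuclear phosphatase for p38, JNK and ERK that is itself an immediate-early gene, had 7.94, 5.90, 10.3, 13.7 and 9.48 CPM in DOX tumours 1 to 5, against 13.4, 7.44, 11.6, 5.68 and 8.05 CPM in no_DOX tumours 1 to 5. The 2 groups spanned nearly the same range. The fold change was 0.03 ± 0.27 (adjusted p = 0.963), with -0.14 without DOX 4 and 0.21 without no_DOX 1. The annotated locus of Dusp1 overlaps Ergic1 on the opposite strand, which had 30011 counts against 1850 for Dusp1. This locus extends upstream of the RefSeq start used for the promoter window, so the printed Dusp1 window lies inside it. Dusp6 (ENSMUSG00000019960.8, chr10:99263231-99267489), a cytoplasmic phosphatase selective for ERK, had 165.2, 83.0, 127.2, 120.8 and 179.0 CPM in DOX tumours, against 116.2, 95.4, 116.5, 74.9 and 106.8 CPM in no_DOX tumours. All DOX tumours but DOX 2 were above the highest no_DOX tumour. Dusp6 had a fold change of 0.41 ± 0.20 (adjusted p = 0.334 by edgeR's quasi-likelihood test), which was 0.19 with no_DOX 4 and DOX 5 both left out.

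Spry2 (ENSMUSG00000022114.5, chr14:105891947-105896819), a Sprouty protein that acts between receptor and RAF, had 49.7, 43.3, 46.3, 56.2 and 44.9 CPM in DOX tumours 1 to 5, against 47.4, 33.2, 44.9, 32.4 and 43.8 CPM in no_DOX tumours 1 to 5. DOX 1 and DOX 4 lay above the no_DOX range, and none lay below it. Spry2 had the smallest spread of the 10 genes, and its fold change was 0.25 ± 0.12 (adjusted p = 0.331 by edgeR's quasi-likelihood test). Spry4 (ENSMUSG00000024427.7, chromosome 18) had 30.6, 17.8, 21.8, 40.1 and 21.3 CPM in DOX tumours, against 20.5, 13.6, 17.9, 5.73 and 15.6 CPM in no_DOX tumours. The DOX tumours were above the highest no_DOX tumour in 4 of 5 cases, DOX 2 being the exception, a pattern shown by 6.77% of all genes tested. The highest tumour, DOX 4, was at 6.99 times the level of the lowest, no_DOX 4. Spry4 differed by 0.84 ± 0.31 (adjusted p = 0.252 by edgeR's quasi-likelihood test), with an adjusted p of 0.128 by DESeq2 and 0.115 by limma voom. It was 0.63 without no_DOX 4, 0.64 without DOX 4 and 0.70 with no_DOX 4 and DOX 5 both left out. Its unadjusted p was no longer under 0.05 without DOX 4.

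**Figure D2:**
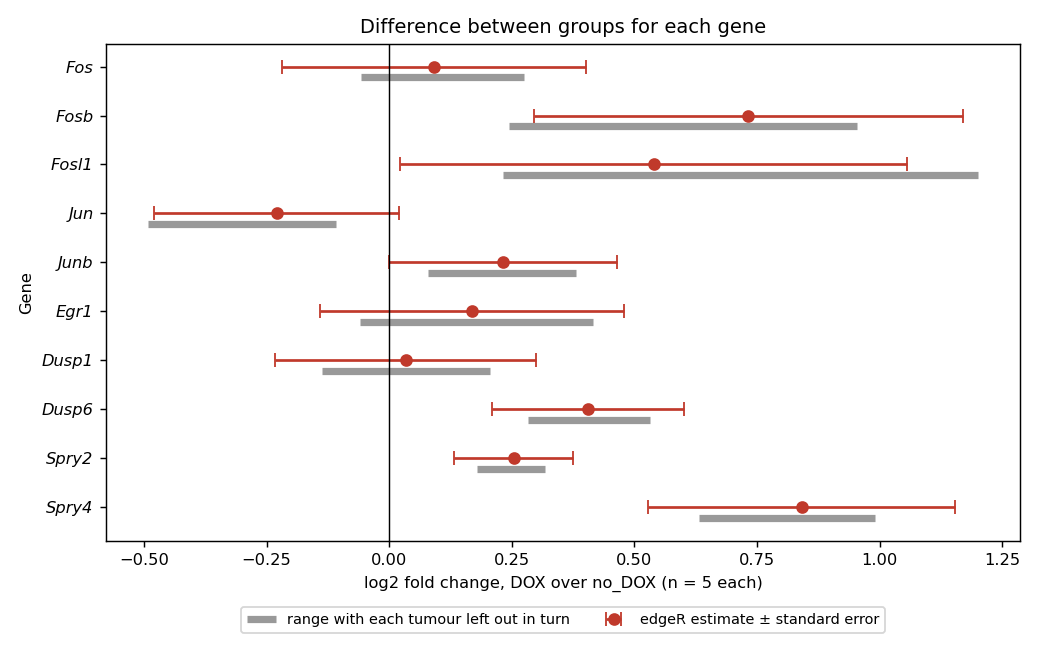
Log2 fold change of DOX over no_DOX (horizontal axis) for each of the 10 genes, with red points and bars for the edgeR estimate ± standard error (n = 5 each) and grey bars for the range when each tumour was left out in turn. The grey bars of Fos, Egr1 and Dusp1 cross 0, that of Jun stays below it, and those of Fosb, Fosl1, Junb, Dusp6, Spry2 and Spry4 stay above it.

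Set against their lengths, the genes covered a wide range of levels. On the scale of CPM per kb of exon, averaged over the 10 tumours, Dusp6 was at 37.8 ± 10.5, Junb at 33.6 ± 9.68, Jun at 21.4 ± 6.62, Spry2 at 21.2 ± 3.39 and Egr1 at 15.0 ± 5.60 (SD, n = 10). Fos followed at 10.9 ± 3.93, Spry4 at 4.31 ± 1.97, Dusp1 at 2.83 ± 0.87, Fosl1 at 0.706 ± 0.45 and Fosb at 0.562 ± 0.38. Neighbours were not separated at 3 places in this order: Dusp6 was above Junb in 7 of 10 tumours, Jun above Spry2 in 5 and Fosl1 above Fosb in 6. At the other places the higher gene led in 9 or 10 of 10 tumours. Within groups most of these genes spread more than the typical gene. The SD of log2 CPM within groups was 0.89 for Fosl1, above that of 96.7% of tested genes, 0.57 for both Fos and Egr1 (89.1% and 89.4%), 0.61 for Spry4 (90.6%) and 0.21 for Spry2 (50.5%).

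The spread was shared between the genes tumour by tumour. With each gene centred on its mean over the 10 tumours, the average over the 10 genes was 0.05, -0.41, 0.14, 0.53 and 0.49 in DOX tumours 1 to 5, against 0.32, -0.32, 0.29, -0.86 and -0.23 in no_DOX tumours 1 to 5, in log2 units. Tumours of both groups lay on each side of 0, with DOX 4 the highest and no_DOX 4 the lowest. DOX 4 had the highest value of 5 genes, DOX 5 of 4 and no_DOX 3 of Fos. The lowest value was in no_DOX 4 for 8 of the 10 genes, in DOX 2 for Jun and in no_DOX 2 for Junb. The 3 tumours with the lowest averages, DOX 2, no_DOX 2 and no_DOX 4, were also the 3 at the high end of the first principal component of all genes. The inhibitors and the factors did not order the tumours in the same way: DOX 1 averaged 0.32 over the 4 inhibitors and -0.12 over the 6 factors, while DOX 5 averaged 0.24 over the inhibitors and 0.65 over the factors.

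**Figure D3:**
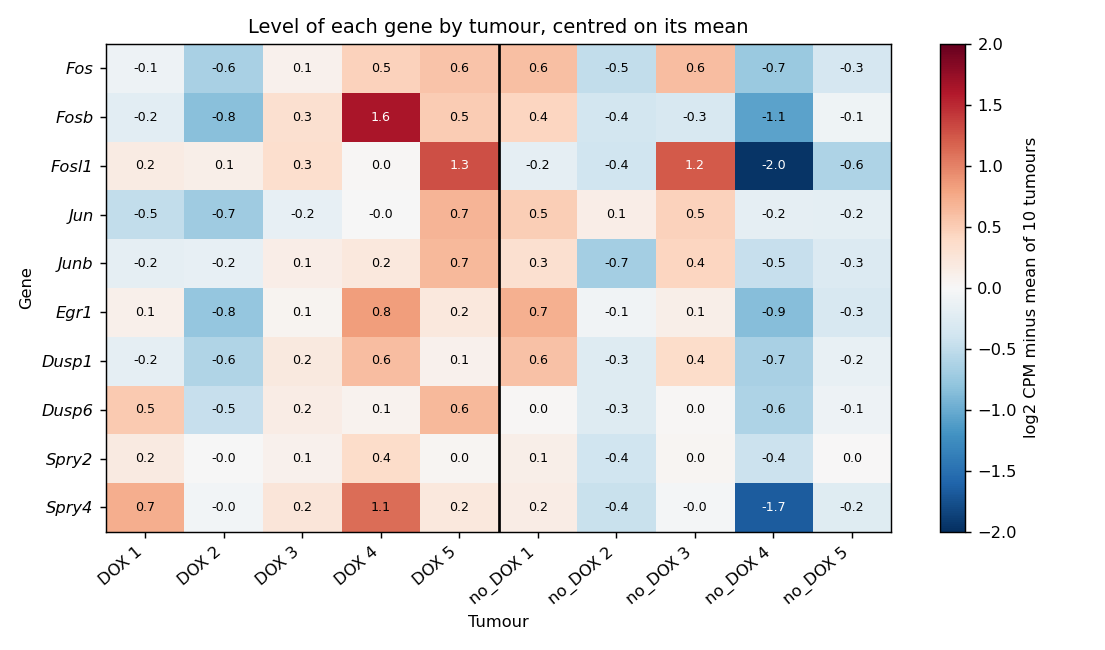
Level of each of the 10 genes (vertical axis) in each tumour (horizontal axis, DOX left of the line and no_DOX right), as log2 CPM minus that gene's mean over the 10 tumours, from blue (low) to red (high). The column of no_DOX 4 is blue for every gene, and DOX 4 and DOX 5 are mostly red.

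Correlations over the 10 tumours on log2(CPM + 1) were computed for 3 pairs of these genes. Fos and Egr1, both targets of the ternary complex factors, had Pearson's r = 0.852 (permutation p = 0.00113, adjusted over the 3 pairs 0.0017) and Spearman's rho = 0.867 (permutation p = 0.0023, adjusted 0.00345). Without no_DOX 3 and no_DOX 4, the 2 tumours farthest from the median of Fos, r was 0.870. Spry2 and Spry4 had r = 0.914 (permutation p = 3e-05, adjusted 9e-05) and rho = 0.952 (permutation p = 0.0001, adjusted 0.0003), and r was 0.955 without no_DOX 2 and no_DOX 4. As a pair of factor and inhibitor, Egr1 and Spry4 had r = 0.751 (permutation p = 0.0104, adjusted 0.0104) and rho = 0.758 (permutation p = 0.0146, adjusted 0.0146). Without DOX 2 and no_DOX 4 this r was 0.681 over 8 tumours (exact permutation p = 0.0603), so it no longer passed. It was 0.849 without DOX 2 alone and 0.621 without no_DOX 4 alone (exact permutation p = 0.0739). On deviations from each group's mean, which removes the difference between DOX and no_DOX, r was 0.849 for Fos with Egr1, 0.868 for Spry2 with Spry4 and 0.851 for Egr1 with Spry4.

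**Figure D4:**
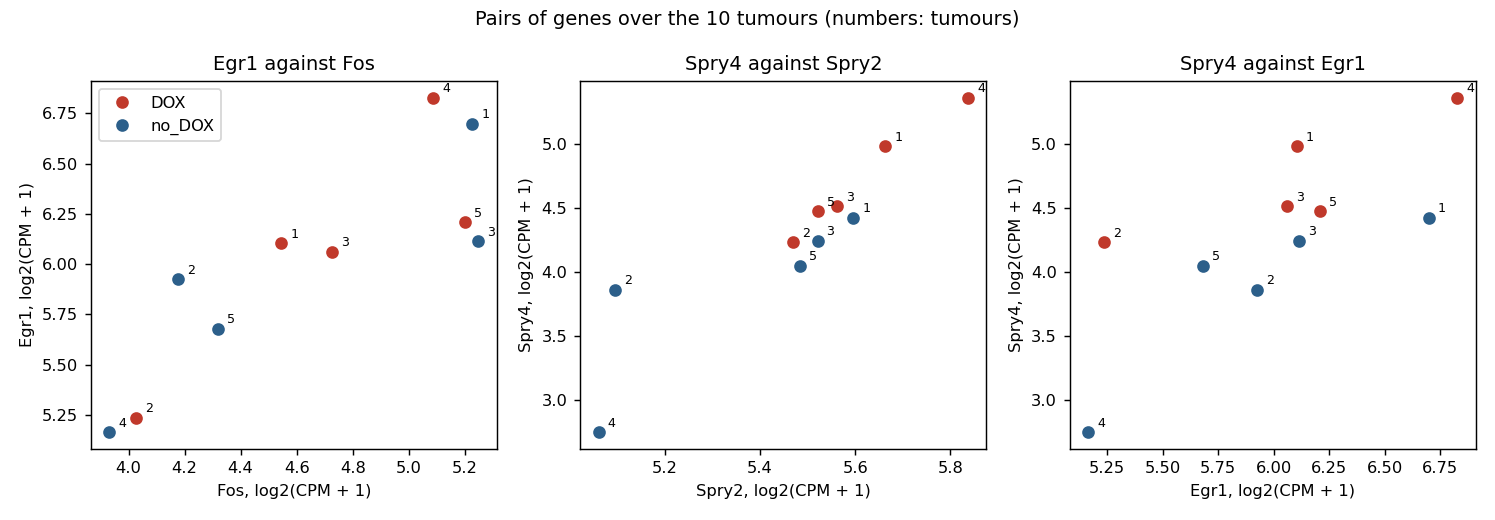
Log2(CPM + 1) of 3 pairs of genes in the 10 tumours (DOX red, no_DOX blue, numbered by tumour): Egr1 against Fos, Spry4 against Spry2, and Spry4 against Egr1. The values of r are 0.852, 0.914 and 0.751, and no_DOX 4 lies at the lower left of each panel.

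Likeness was compared among 10469 protein-coding genes averaging at least 5 CPM, with the 10 genes themselves and predicted genes (Gm and Rik names) left out. Those whose log2 level followed Fos most closely over the 10 tumours were Tgif1, a homeobox repressor (r = 0.951), Ier3, another early response gene (0.892), Kbtbd2 (0.892), Ino80d (0.885) and Zfp160 (0.885). The closest to Spry4 were Fhl3, a LIM domain protein (0.979), Gnaq, a G protein alpha subunit (0.972), Cdkl2 (0.969), Fmnl3, a formin (0.965), and Snai1, a zinc finger repressor known for epithelial to mesenchymal transition (0.964). These values are descriptions of the best among many genes measured in the same libraries. The choice used all 10 tumours, group difference included, so the fold changes of these genes are no independent support for those of Fos or Spry4. Between the groups of tumours, those near Fos had log2 fold changes of 0.01 to 0.37 with adjusted p of 0.586 to 0.926. Those near Spry4 had 0.23 to 0.89 with adjusted p of 0.215 to 0.326. Snai1 had 15.4 to 26.6 CPM in DOX tumours and 4.98 to 15.3 CPM in no_DOX tumours, with no overlap (0.89 ± 0.29), as in 1.82% of all genes tested. Cdkl2 was at 12.1 ± 2.87 CPM in DOX and 7.05 ± 1.93 CPM in no_DOX tumours (SD, n = 5 each), with adjusted p of 0.215 by edgeR, 0.0459 by DESeq2 and 0.0391 by limma voom.

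By edgeR none of all 16167 genes tested passed, so none of the other immediate-early and early response genes did. Of 31 tested, 23 had a positive and 8 a negative fold change (median 0.15), beside 50.5% positive among all genes tested. Adjusted p under 0.05 was reached by 0. At an unadjusted p under 0.05, 2 were higher and 0 lower, which is 6.45% of the list beside 16% of all genes tested. Those 2 were Mcl1, a survival factor of the BCL2 family, at 0.18 ± 0.07, and Per1, a clock gene with early response kinetics, at 0.28 ± 0.11. Maff, a small MAF factor, was next at 0.47 ± 0.23. Each of these 3 had overlapping groups.

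Further ERK feedback and ERK output genes, such as other DUSP phosphatases, Spred proteins and ETS factors of the Etv group, were tested in 21 cases. A positive fold change was found for 16 and a negative one for 5 (median 0.24), beside 50.5% positive among all genes tested. Adjusted p under 0.05 was reached by 0, beside 0% of all genes tested. Unadjusted p under 0.05 was reached by 3, all higher, which is 14.3% of the list beside 16% of all genes tested. Dusp5, a nuclear phosphatase selective for ERK, had 17.9 to 26.2 CPM in DOX tumours and 13.9 to 20.7 CPM in no_DOX tumours (0.36 ± 0.13, adjusted p = 0.244 by edgeR, 0.134 by DESeq2 and 0.0397 by limma voom). Every voom result given here used sample weights, in which DOX 3 counted at 4.65 and DOX 1, 2, 4 and 5 at 0.465 to 1.04. Epha2, an ephrin receptor whose gene responds to ERK, averaged 112.0 ± 19.5 CPM in DOX and 85.0 ± 14.5 CPM in no_DOX tumours (SD, n = 5 each). Its fold change was 0.40 ± 0.14. Dusp7, another ERK phosphatase, was at 0.24 ± 0.09. Epha2 and Dusp7 each had 4 of 5 DOX tumours above the highest no_DOX tumour.

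The cascade that leads to these genes was measured through 24 components from SHC and GRB2 to the ELK factors. The fold change was positive for 20 and negative for 4 (median 0.06), beside 50.5% positive among all genes tested. By edgeR 0 had an adjusted p under 0.05, beside 0% of all genes tested. Unadjusted p under 0.05 was reached by 4, all higher, which is 16.7% of the list beside 16% of all genes tested. Among these 4 were Rasal2, Rasa1 and Nf1, genes of GTPase-activating proteins for RAS, a grouping made after the values were seen. Rasal2 had 43.8 to 51.2 CPM in DOX tumours and 29.9 to 43.5 CPM in no_DOX tumours, with no overlap, as in 1.82% of all genes with DOX higher. Its fold change was 0.40 ± 0.10 (adjusted p = 0.196 by edgeR, 0.0321 by DESeq2 and 0.0352 by limma voom). Rasa1 averaged 149.1 ± 28.2 CPM in DOX and 106.1 ± 19.95 CPM in no_DOX tumours (SD, n = 5 each), with a fold change of 0.49 ± 0.16 (adjusted p = 0.238 by edgeR, 0.0831 by DESeq2 and 0.0405 by limma voom). Nf1, named after its value was seen, was at 0.30 ± 0.11. Heat shock and acute stress genes, which also respond within minutes, were split. Of 10 tested, 6 had a positive and 4 a negative fold change (median 0.15), beside 50.5% positive among all genes tested. An unadjusted p under 0.05 was reached by 20%, beside 16% of all genes tested. Dnaja1, a cochaperone, was at 0.23 ± 0.07 and Hsp90aa1, the inducible HSP90, at -0.25 ± 0.10, both with unadjusted p under 0.05, and Dnajb1 was at 0.20 ± 0.13. In this list 0 had an adjusted p under 0.05 by edgeR, beside 0% of all genes tested.

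Marker genes described the tissue makeup of the tumours. Luminal markers were present throughout, with summed levels of 1520 to 2247 CPM in DOX and 1488 to 1974 CPM in no_DOX tumours. Of 14 tested, 11 had a positive fold change, among them Krt8 (0.23 ± 0.16) and Cdh1 (0.26 ± 0.12), beside 50.5% of all genes tested. At an unadjusted p under 0.05, 8.2% of all genes tested were higher and 7.83% lower, and of the luminal markers 4 were higher and 1 lower. The lower one was Elf5, a regulator of alveolar luminal cells named after its value was seen, at -0.51 ± 0.16 (adjusted p = 0.23), with 4 of 5 DOX tumours below the lowest no_DOX tumour. Basal and myoepithelial markers had a positive fold change in 13 of 13 (median 0.48), beside 50.5% of all genes tested. An unadjusted p under 0.05 was reached by 2, which is 15.4% of the list beside 16% of all genes tested. Summed levels were 451.4 to 1066 CPM in DOX and 358.4 to 744.8 CPM in no_DOX tumours. The most abundant were Itga6 (0.30 ± 0.16) and Acta2 (0.48 ± 0.37). The highest sum was in DOX 5 and the lowest in no_DOX 4, the tumour lowest for 8 of the 10 genes, while DOX 4, highest for 5 of the 10, had a sum of 660.1 CPM. Itga6 alone gave 504.4 CPM of the sum in DOX 4. Krt5, Krt14, Krt15 and Krt17 were at 1.22, 9.02, 1.29 and 8.09 CPM there, against 193.8, 124.3, 7.43 and 79.1 CPM in DOX 5. Itga6 (430.5 CPM in DOX 5) and Oxtr (25.6 against 15.6 CPM) were instead higher in DOX 4. The keratins and Oxtr were picked out once the levels were known. Fibroblast markers had a negative fold change in 11 of 12 (median -0.90), beside 49.5% of all genes tested. At an unadjusted p under 0.05, 5 were lower, beside 7.83% of all genes tested. Summed levels were 852.0 to 1866 CPM in DOX and 2160 to 4115 CPM in no_DOX tumours, and were mostly collagen transcripts. In no_DOX 3, Col1a1, Col1a2 and Col3a1 gave 2093, 1144 and 714.4 of the 4115 CPM. Col1a1 was at -1.15 ± 0.27 and Col1a2 at -1.15 ± 0.25, both without overlap, as in 1.13% of all genes with DOX lower. Their adjusted p was 0.196 by edgeR for each and 0.00399 and 0.00228 by DESeq2. Other markers varied: Pdgfrb (-0.07 ± 0.13), Thy1 (0.01 ± 0.23) and Fap (-0.01 ± 0.27) differed little, while Lum was at -1.44 ± 0.48. These markers were named after their values were seen. Skeletal muscle markers were high in DOX 1 (76.5 CPM summed), DOX 3 (36.3 CPM) and no_DOX 5 (69.9 CPM) and at most 2.20 CPM elsewhere, with 6 of 8 markers at 0 in some tumour. Acta1 and Myh1 were the most abundant. With those 3 tumours left out, the fold change of Spry4 was 0.87, that of Dusp6 0.34 and that of Spry2 0.29, and 0 of the 10 genes had an unadjusted p under 0.05. The part of basal and fibroblast content in the levels of the 10 genes was not tested.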

How the data were processed

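RNA was measured in 10 whole tumours, 5 DOX and 5 no_DOX. Per the labels' protocols, ribosomal RNA was depleted and directional libraries were read as single ends of 75 bp. Ribosomal loci still held 24.5% (DOX 5) to 33.3% (no_DOX 3) of the counts, with no_DOX 4 at 33.2%. These loci were genes annotated as ribosomal RNA, mitochondrial ones included, and a few predicted genes. Whether this share bears on the levels of the 10 genes was not tested. GRCm38, STAR 2.6.0c, featureCounts, Trimmomatic, bcl2fastq and DESeq2 are listed in the submitters' processing notes, while no annotation release or strand setting is recorded in them. The deposited values are raw counts per gene made by the authors, with totals of 14256948 to 39358457. Xist had 418344 counts and its antisense partner Tsix 55. Symbols came from GENCODE for 55154 of 55335 IDs. In all 20 pairs of libraries of one group the counts differed by more than sampling noise (chi-square over its degrees of freedom, 6.76 to 41.9).

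Counts were tested with edgeR 4.0.16 in R 4.3.3: TMM scaling, filterByExpr (minimum count 10, total 15), a quasi-likelihood test and Benjamini-Hochberg adjustment at 0.05 over 16167 genes. Alternatives were DESeq2 1.42.0, limma 3.58.1 voom with sample weights, other scalings and filters, a replicate block and tumours left out. Hpn used an exact permutation test and correlations 100000 permutations for all 10 tumours and exact ones for fewer, with a pseudocount of 1. The precision of each value is limited by the 5 tumours per group.

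The 10 genes and all lists were chosen with earlier results of these data known. Genes named outside the 10 were, by rule, the 3 with the smallest p in each of 4 pathway lists (averaging 1 CPM or more in either group), the 2 most abundant of each marker list described, and the 5 most correlated with Fos and with Spry4. The last were taken from protein-coding genes averaging at least 5 CPM, without the 10 genes and predicted genes. One gene named by this rule is not reported here. A gene was counted as overlapping unless all tumours of one group exceeded all of the other.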

Additional observations from a re-analysis of the deposited data

Results flagged for a closer look

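Each group of 5 tumours was examined for a tumour whose gap to its nearest neighbour exceeded 0.71 of the group's range (Dixon's limit), for the named genes. This marked 6 of 82 groups, where chance marks about 1 in 20, and 1 of the 20 groups of the 10 genes. That one was Fosl1, which stood at 3.08 CPM in DOX 5, far above the other DOX tumours. Rasal2 was low in DOX 2 at 43.8 CPM, still above every no_DOX tumour. Hsp90aa1 was high in DOX 1 at 548.9 CPM. Ier3 was low in DOX 2 at 31.4 CPM, the DOX tumour that was also lowest for Fos and Egr1. Ier3 was chosen for following Fos over these tumours, so a shared low tumour is no independent support. The muscle genes Acta1 and Myh1 were high in no_DOX 5, at 20.9 and 19.8 CPM.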

How the results depend on the processing

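The count of called members was 0 under all 21 alternatives run. The count of all genes called, 0 with edgeR (2592 at an unadjusted p under 0.05), was 322 with DESeq2, 775 with limma voom with sample weights and 0 to 37 with a single tumour left out. It was 2 without DOX 2 and 37 without no_DOX 3. In the voom fit DOX 3, the deepest library, was weighted at 4.65, and DOX 1, 2, 4 and 5 at 1.04, 0.465, 0.88 and 0.677. The no_DOX tumours were weighted at 0.633 to 1.89. Whether the 775 calls hold with equal weights was not tested. A fit with the replicate number as a block called 7 genes and none of the 10, and it changed no call among them. Deviations of same-numbered tumours 1 to 5 correlated at 0.264, 0.244, 0.127, 0.122 and 0.0706, and the highest correlations with another number were 0.387, 0.37, 0.0745, 0.208 and 0.237. Only number 3 correlated best with its own, and number 5 was under 0.1, so the numbers were not taken as pairs. The members with an unadjusted p under 0.05, Spry4 alone in the main fit, also changed with the setting. Without DOX 5, and with no_DOX 4 and DOX 5 both left out, they were Jun, lower in DOX, and Spry4. Without DOX 2 they were Fosb, Dusp6 and Spry4, with limma voom Fosl1, Dusp6 and Spry4, and without DOX 4 there were none. Without DOX 4 only 6 of the 10 genes were higher in DOX, and with no_DOX 4 and DOX 5 both left out 5 were. In the second case Fos was at -0.19, Fosl1 at -0.028, Junb at -0.0080, Dusp1 at -0.11 and Zfp160 at -0.041. Zfp160 was also at -0.0090 with limma voom. With single tumours left out, Fos ranged over -0.058 to 0.27, Egr1 over -0.059 to 0.41, Dusp1 over -0.14 to 0.21 and Zfp160 over -0.015 to 0.035. The correlation of Egr1 with Spry4 was 0.681 without the 2 farthest tumours, 0.622 with no_DOX 4 and DOX 5 both left out, and 0.621 to 0.849 with single tumours left out, missing 0.05 without DOX 4 and without no_DOX 4. With the 3 tumours with muscle transcripts left out, Fos with Egr1 had r = 0.854 (exact permutation p = 0.00952) over 7 tumours. Its rho was 0.679 (exact permutation p = 0.11), so by rank it no longer passed. In that setting rho was 0.929 for Egr1 with Spry4 (exact permutation p = 0.00675). The cause of these changes was not tested. With library size as the only scaling, 67.8% of genes at an unadjusted p under 0.05 were higher in DOX, against 51.2% with TMM. Leaving out the 3 tumours with muscle transcripts, and the scalings and left-out tumours for correlations, were chosen after seeing the data. With 5 tumours a group, fold changes of the size seen here have standard errors of 0.12 to 0.52 in the 10 genes. Fosl1, with 4 to 62 counts per library, has the least depth.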
